A study of Mus musculus with 13 samples.

Results

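Heme synthesis and erythroid iron uptake were followed through 9 genes: Alas2, Alad, Uros, Urod, Cpox, Ppox, Fech, Slc25a37 and Tfrc. They were taken by gene symbol from the annotation of the deposited array table, and each had 1 row, so that they make up 9 of 19505 symbols measured. Of the 9, 8 were tested, because Uros lay below the median of every array. Whole bone marrow RNA was measured on 13 Affymetrix arrays in 3 groups of C57Bl/6J mice. BRSST+sgEzh2 marrow (4 arrays) carried the guide combination that the submitters call BRSST together with a guide against Ezh2, BRSST+sgLuc marrow (5 arrays) carried BRSST with the guide sgLuc, and sgLuc marrow (4 arrays) carried sgLuc alone. The labels do not spell out BRSST, and no ages are given there. In all groups LSK cells, the stem and progenitor fraction of marrow, came from Cas9 knock-in mice and were transplanted 24 h after guide transduction into recipients irradiated with 7 Gy. The guides were given to the donor cells, and the marrow was harvested whole, so cells that the recipients kept can be part of each sample. Harvest was at signs of leukemia or after 6 months, and neither the case nor the leukemia status is given per sample.

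Heme is made partly in mitochondria and partly in the cytosol. The pathway opens in mitochondria with aminolevulinate synthase, which erythroid cells make from Alas2, passes through the cytosolic enzymes Alad, Uros and Urod, returns to mitochondria through Cpox and Ppox, and ends with Fech, ferrochelatase, which inserts iron. Erythroid precursors in marrow feed this step with iron taken up from transferrin by the transferrin receptor Tfrc and carried into mitochondria by Slc25a37, mitoferrin 1. All cells make some heme, whereas Alas2 transcripts are known chiefly from the red cell lineage.

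Array medians ran from log2 7.19 to 7.32. Over all genes, arrays of a group correlated on average at 0.985 (BRSST+sgEzh2), 0.979 (BRSST+sgLuc) and 0.99 (sgLuc). The number of arrays limits the precision. No label says that each array is a separate mouse, so the p-values here rest on the spread between samples alone. How much of that spread is technical is not known. The sample codes in the label descriptions form 1 unbroken run over the BRSST arrays and a separate, higher run over the sgLuc arrays, so that any difference in handling between the 2 runs cannot be told apart from the sgLuc guide. The Y-linked genes Uty and Kdm5d were high on 2 of 4 BRSST+sgEzh2, 2 of 5 BRSST+sgLuc and 4 of 4 sgLuc arrays. The tissue label was checked against marker lists: 11 neutrophil genes averaged log2 12.63 to 12.79 on BRSST+sgEzh2 arrays, 12.58 to 12.69 on BRSST+sgLuc arrays and 12.79 to 12.90 on sgLuc arrays. The 14 red cell membrane genes averaged 6.58 to 7.23 on BRSST+sgEzh2, 7.08 to 8.10 on BRSST+sgLuc and 6.59 to 6.90 on sgLuc arrays, so that every BRSST+sgLuc array lay above every sgLuc array. Only 8 of the 14 were tested. This mean lay below the array median on every sgLuc and BRSST+sgEzh2 array, so it includes signals that can be background. BRSST+sgLuc replicates 2 and 3 stood highest, at 7.72 and 8.10. Globin genes are not analysed here. In whole marrow, fewer cells of a type and less RNA per cell cannot be told apart.

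No member passed the test for the Ezh2 guide on the BRSST background. Against sgLuc marrow, the last enzyme, Fech, was higher and the enzyme before it, Ppox, was lower in both BRSST groups. Alas2 was highest in BRSST+sgLuc marrow but spread widely there and did not pass. The other members tested (Alad, Urod, Cpox, Slc25a37 and Tfrc) did not pass in any comparison. The plot of the members by array shows these values.

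**Figure D1:**
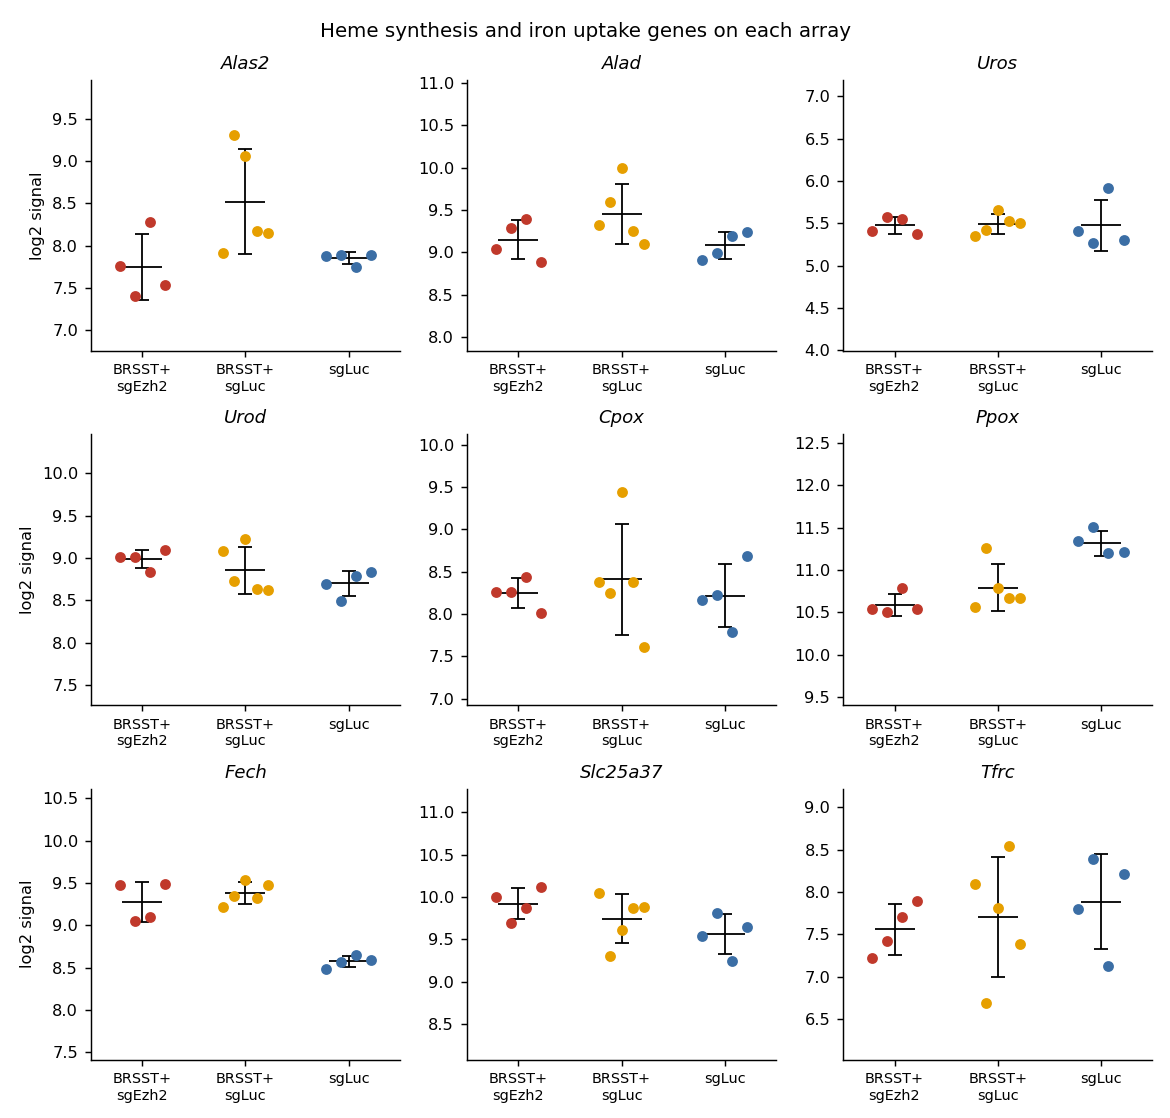
Log2 signal of the 9 genes on each array (points), with the group mean and SD (bars), in BRSST+sgEzh2 (n = 4), BRSST+sgLuc (n = 5) and sgLuc (n = 4) marrow. Each panel spans the same number of log2 units. Fech of the BRSST arrays lies at 9.06 and above, all above the sgLuc arrays at 8.65 and below, and Ppox of sgLuc marrow lies at 11.20 and above.

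BRSST+sgEzh2 against BRSST+sgLuc asks what the Ezh2 guide adds to the BRSST combination. Of the 8 members tested 0 passed (limma, adjusted p of 0.05), where 0.783% of the 10601 genes tested passed. At an unadjusted p under 0.05 limma called 1 member, Alas2, against 13.9% of all genes. The median difference over the members tested was log2 -0.16, beside 0.01 over all genes tested, and 6 of the 8 estimates were below 0. No member had groups that did not overlap, which was the case for 3.53% of genes.

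Alas2, whose enzyme sets the pace of heme synthesis in red cell precursors, had log2 signals of 7.76, 7.41, 8.29 and 7.53 on BRSST+sgEzh2 arrays. On BRSST+sgLuc arrays the values were 7.91, 9.31, 9.06, 8.18 and 8.15. BRSST+sgLuc replicates 2 and 3 were the high arrays, and BRSST+sgEzh2 replicate 3 lay above the other 3 BRSST+sgLuc arrays, so that the ranges overlapped. BRSST+sgEzh2 minus BRSST+sgLuc was -0.77 ± 0.26 (log2, SE, n = 4 and 5), or 1.71-fold lower, with a 95% interval of -1.34 to -0.21 and a limma adjusted p of 0.208. Red cell membrane genes moved with it: their mean was 6.88 in BRSST+sgEzh2 and 7.54 in BRSST+sgLuc marrow, a difference of log2 -0.66. Relative to that mean the Alas2 difference was -0.11 (adjusted p = 0.658), while all genes tested shifted by 0.66 under the same scaling. It was -0.41 with array quality weights and -0.46 among the arrays with high Y-linked signal alone. On the red cell membrane list 0 of 8 tested genes passed and all 8 estimates were below 0. Rhag and Add2 of this list were above the array median on BRSST+sgLuc arrays alone. The filter thus largely set the direction of their estimates. Of the other marker lists, monocyte and macrophage genes had 1 of 10 higher, Mpeg1, where 0.67% of all genes were higher. B lineage and T and NK genes had 0 of 7 each, with all 7 estimates above 0. The part of these lists in the member values was not tested.

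Alad, the cytosolic enzyme that makes porphobilinogen, differed by -0.30 ± 0.17 (limma adjusted p = 0.460), with a 95% interval of -0.67 to 0.06. Its highest signal, 9.99, was on BRSST+sgLuc replicate 3. For Fech the interval was -0.35 to 0.15, for Urod, which decarboxylates uroporphyrinogen, -0.16 to 0.43, and for Ppox -0.50 to 0.10. Cpox, the mitochondrial enzyme before Ppox, differed by -0.16 ± 0.28 (adjusted p = 0.849), and by 0.095 without BRSST+sgLuc replicate 3. That array had a Cpox signal of 9.44, where the other BRSST+sgLuc arrays ran from 7.61 to 8.38. Among the iron carriers, Slc25a37 differed by 0.18 ± 0.16 (0.678) and Tfrc by -0.15 ± 0.33 (0.883). The Tfrc estimate was -0.61 with array quality weights, -1.001 among the arrays with high Y-linked signal alone and 0.49 among those with low signal. The intervals of Cpox and Tfrc were the widest, and reached from -0.76 to 0.43 and from -0.86 to 0.56.

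**Figure D2:**
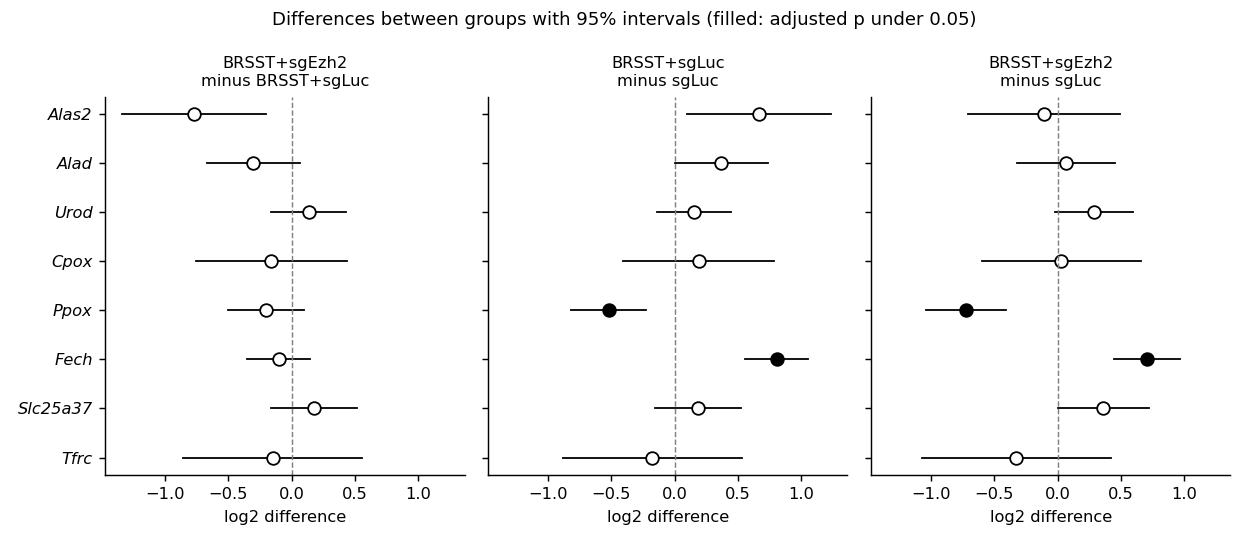
Log2 difference (circle) with its 95% interval (line) for the 8 members tested in each of the 3 comparisons, from limma with 13 arrays in 1 fit. Filled circles are Fech and Ppox against sgLuc, which passed at an adjusted p of 0.05, and every interval of the first panel except that of Alas2 includes 0.

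BRSST+sgLuc against sgLuc sets marrow with the BRSST guides against marrow with sgLuc alone. Of the 8 members tested 2 passed, 1 higher and 1 lower, where 22.5% of all genes tested passed (10.8% higher, 11.7% lower), so the share of members called was near that of all genes. The median difference over the members was log2 0.19, beside 0.01 over all genes, and 6 of 8 estimates were above 0. Groups did not overlap for Alas2 and Fech, and for 18.9% of all genes.

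Fech had log2 signals of 9.22, 9.35, 9.54, 9.32 and 9.48 on BRSST+sgLuc arrays. On sgLuc arrays it had 8.49, 8.56, 8.65 and 8.59. Every BRSST+sgLuc array was above every sgLuc array, and both groups were tight, with SDs of 0.13 and 0.07. Fech rose by 0.81 ± 0.12 (log2, SE, n = 5 and 4), or 1.75-fold (limma adjusted p = 0.000473). The mean of the red cell membrane genes differed by log2 0.81 as well (7.54 in BRSST+sgLuc and 6.74 in sgLuc marrow). Relative to that mean the Fech difference was 0.002 (adjusted p = 0.994), and all genes tested shifted by -0.81 under the same scaling. Among the arrays with high Y-linked signal alone the difference was 0.70 (n = 2 and 4, adjusted p = 0.00378), an alternative chosen after seeing the data.

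Ppox, protoporphyrinogen oxidase, went the other way. Its log2 signals were 10.56, 11.27, 10.79, 10.67 and 10.67 on BRSST+sgLuc arrays, against 11.34, 11.51, 11.20 and 11.21 on sgLuc arrays. BRSST+sgLuc replicate 2 lay among the sgLuc arrays, and the other 4 lay below all of them. Ppox fell by 0.52 ± 0.14 (log2, SE), or 1.44-fold, with a limma adjusted p of 0.0160. Without sgLuc replicate 2, its highest control array, the difference was -0.46 and the adjusted p 0.0578. Among the arrays with high Y-linked signal it was -0.70 (adjusted p = 0.00227).

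Alas2 averaged 8.52 ± 0.62 in BRSST+sgLuc marrow and 7.85 ± 0.07 in sgLuc marrow (SD, n = 5 and 4). The sgLuc arrays read 7.88, 7.89, 7.75 and 7.89, all just below the lowest BRSST+sgLuc array at 7.91. The difference was 0.67 ± 0.26, with a 95% interval of 0.10 to 1.24 and a limma adjusted p of 0.0844. Leaving out BRSST+sgLuc replicate 1 gave 0.82 and an adjusted p of 0.0467. Among the arrays with high Y-linked signal alone the difference was 0.19 (adjusted p = 0.288), and with the Y-linked class as a block it was 0.32 (0.418).

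Alad ran from 9.10 to 9.99 on BRSST+sgLuc arrays and from 8.91 to 9.24 on sgLuc arrays, a difference of 0.37 ± 0.17 (limma adjusted p = 0.139). Its adjusted p was 0.0372 with array quality weights. Urod differed by 0.15 ± 0.14 (0.476) and Cpox by 0.19 ± 0.28 (0.686), and the Cpox estimate was -0.067 without BRSST+sgLuc replicate 3. Slc25a37 differed by 0.18 ± 0.16 (0.455). Tfrc spread over 6.69 to 8.55 in BRSST+sgLuc marrow and 7.13 to 8.40 in sgLuc marrow, and its difference of -0.18 ± 0.33 (0.758) turned to 0.078 without BRSST+sgLuc replicate 2. Marker lists were also counted between these groups, where 11.7% of all genes fell and 10.8% rose. Of proliferation genes 2 of 9 tested fell (Bub1 and Top2a), and of T and NK genes 6 of 7. The 7 T and NK genes were above the array median on all 4 sgLuc arrays, but on 0 to 2 of the 5 BRSST+sgLuc arrays. Their signals there can be background. Monocyte and macrophage genes fell in 5 of 10 cases and B lineage genes in 6 of 7, while neutrophil genes had 1 of 11 higher and 4 lower, and the part of these lists in the member values was not tested. The B lineage list averaged 7.06 to 8.92 on BRSST+sgLuc arrays and 9.51 to 10.76 on sgLuc arrays.

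BRSST+sgEzh2 against sgLuc sets the marrow with all guides against the control guide, and shares its sgLuc arrays with the comparison before. Of the 8 members tested 2 passed, 1 higher and 1 lower, where 9.37% of all genes did (5.51% higher, 3.86% lower). The median difference over the members was log2 0.05, beside 0.02 over all genes. Groups did not overlap for Urod, Ppox and Fech, and for 23.3% of all genes.

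Fech read 9.48, 9.06, 9.10 and 9.49 on BRSST+sgEzh2 arrays, all above the sgLuc values given above. It averaged 9.28 ± 0.24 in BRSST+sgEzh2 and 8.57 ± 0.07 in sgLuc marrow (SD, n = 4 each), and was 1.63-fold higher (log2 0.71 ± 0.12, limma adjusted p = 0.00274). In this comparison the mean of the red cell membrane genes differed by log2 0.14 (6.88 and 6.74). Relative to it Fech differed by 0.56 (adjusted p = 0.437). The Fech difference was 0.69 among the arrays with high Y-linked signal (n = 2 and 4, adjusted p = 0.00881).

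Ppox read 10.53, 10.50, 10.79 and 10.54 on BRSST+sgEzh2 arrays. All 4 lay below the lowest sgLuc array at 11.20. Its mean was 10.59 ± 0.13 in BRSST+sgEzh2 and 11.31 ± 0.14 in sgLuc marrow (SD, n = 4 each), 1.65-fold lower, and it fell by 0.72 ± 0.15 on the log2 scale (limma adjusted p = 0.00695). Among the arrays with high Y-linked signal the difference was -0.80 (0.00298). On the same scale Urod, at 8.84 to 9.09 in BRSST+sgEzh2 and 8.50 to 8.84 in sgLuc marrow, differed by 0.29 ± 0.14 (0.242, and 0.0499 with array quality weights), with ranges that met at 8.84.

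Alas2 of BRSST+sgEzh2 marrow was close to that of sgLuc marrow, at -0.11 ± 0.28 (limma adjusted p = 0.874), with a 95% interval of -0.70 to 0.49. The BRSST+sgEzh2 arrays spanned 7.41 to 8.29 and enclosed the sgLuc arrays. Alad differed by 0.07 ± 0.18 (0.878), Cpox by 0.03 ± 0.29 (0.972), Slc25a37 by 0.36 ± 0.17 (0.202) and Tfrc by -0.33 ± 0.35 (0.640). Monocyte and macrophage genes fell in 3 of 10 cases between these groups and B lineage genes in 1 of 7, and 0 of 7 T and NK genes passed. Of all genes 3.86% fell and 5.51% rose. Of the neutrophil genes 1 of 11 was higher and 1 lower, and the part of these lists in the member values was not tested.

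Uros, uroporphyrinogen III synthase, was not tested. Its log2 signal was 5.37 to 5.58 on BRSST+sgEzh2, 5.35 to 5.65 on BRSST+sgLuc and 5.27 to 5.92 on sgLuc arrays, at percentiles 18.6 to 26.1 of the array. The 3 ranges overlapped throughout. A signal in that region of the scale can be background.

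Members differed in how far arrays of a group lay apart. In BRSST+sgLuc marrow the SD of Alas2 (0.62), Cpox (0.66) and Tfrc (0.71) was above that of 94.2%, 95.1% and 96.2% of genes tested, where the median SD was 0.248. In sgLuc marrow Alas2 was tight (SD 0.07, percentile 11.9), while Cpox and Tfrc were at percentiles 94.9 and 99.1. In signal, Alas2 lay at percentiles 52.3 to 80.3 of the arrays and Tfrc at 39.9 to 70.4, so the lower of these signals can be in part background. For Fech the percentile of the SD was 66.1 with BRSST+sgEzh2, 12.7 with BRSST+sgLuc, 10.8 with sgLuc.

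The spread of Alas2 was shared with some members and not with others. Over the 13 arrays its Pearson r was 0.779 with Alad, and 0.672 for deviations from the group means. With Ppox it was 0.234 over the arrays and 0.826 for the deviations. Fech had an r of 0.354 and 0.091, and Slc25a37 of -0.399 and -0.582. These values describe 13 arrays on which the red cell membrane genes vary as well. Tested genes outside the members were ranked by r over the arrays, with predicted, clone-named and small RNA symbols left out. The first 3 were Plin4, a perilipin of lipid droplets (0.901), Prxl2a (0.887) and Tmod1, a tropomodulin of the red cell membrane skeleton (0.874). Next came Blvrb, a biliverdin reductase abundant in red cells (0.867), and Tspo2, a translocator protein of erythroid cells (0.852). In this order, the r of the 5 for deviations from the group means was 0.852, 0.797, 0.851, 0.878 and 0.761.

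**Figure D3:**
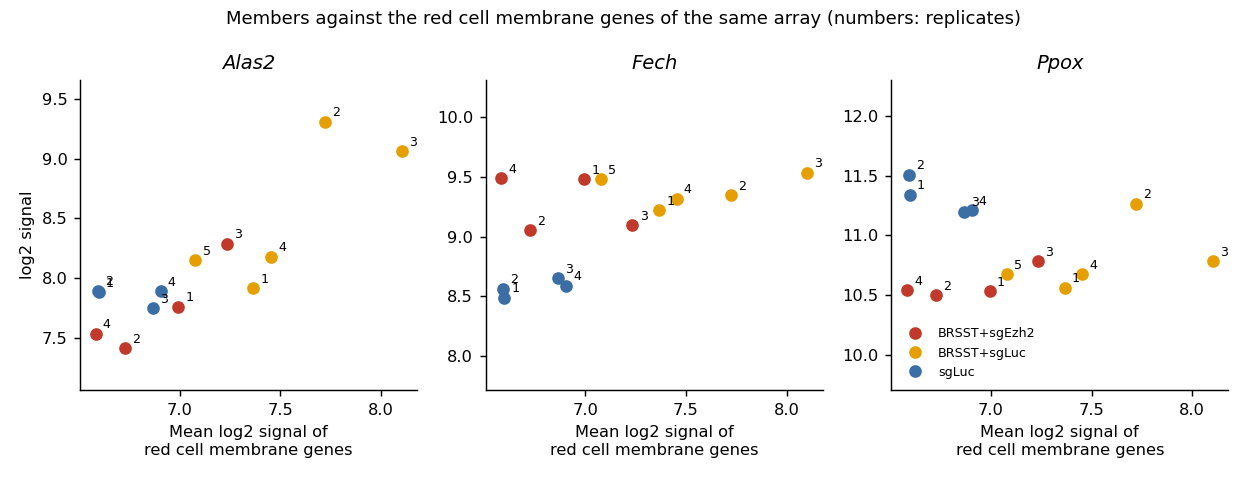
Log2 signal of Alas2, Fech and Ppox (y axis) against the mean log2 signal of 14 red cell membrane genes on the same array (x axis), with replicate numbers. Each panel spans the same number of log2 units. BRSST+sgLuc replicates 2 and 3, at 7.72 and 8.10 on the x axis, have the highest Alas2 signals, and the BRSST+sgEzh2 arrays, at 6.58 to 7.23, have Fech signals above the sgLuc arrays at 6.59 to 6.90.

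Sequence before the annotated start was available for 7 of the 9 members, in 10 windows of 250 bases from RefSeq on GRCm38.p6. Fech and Slc25a37 are named only. Both strands were searched for GATA factor letters (GATA after an A or a T and before an A or a G) and for the CACCC-box letters of Krüppel-like factors (CCNCNCCC), since both factor families are known regulators of red cell genes. A match is a run of letters and not a shown site. The GATA letters were in 26.5% and the CACCC letters in 45.9% of 32851 such windows of the mouse genome. The windows of Alas2, as the erythroid member, of Cpox, which like Alas2 spread widely in BRSST+sgLuc marrow, and of Ppox, the called member with a window, are printed 5′ to 3′ with GATA and CACCC matches in capitals. They lie at chrX:150547167-150547416 (plus strand), chr16:58669958-58670207 (plus strand) and chr1:171281194-171281436 (minus strand), all outside the annotated bounds of their own gene. The Alas2 window lies inside the long annotated span of Apex2 and overlaps Mir3620, and that of Ppox is shown up to the outermost annotated base of the gene.
Alas2: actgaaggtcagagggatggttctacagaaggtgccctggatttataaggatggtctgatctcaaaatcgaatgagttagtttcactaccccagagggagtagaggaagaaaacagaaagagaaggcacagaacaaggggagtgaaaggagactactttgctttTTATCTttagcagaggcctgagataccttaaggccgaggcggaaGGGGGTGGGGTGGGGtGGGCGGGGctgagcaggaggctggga
Cpox: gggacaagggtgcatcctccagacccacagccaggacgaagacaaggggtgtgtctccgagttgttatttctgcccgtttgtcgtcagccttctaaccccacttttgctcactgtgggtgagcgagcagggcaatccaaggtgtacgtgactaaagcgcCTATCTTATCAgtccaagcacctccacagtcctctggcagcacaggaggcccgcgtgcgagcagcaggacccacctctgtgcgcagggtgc
Ppox: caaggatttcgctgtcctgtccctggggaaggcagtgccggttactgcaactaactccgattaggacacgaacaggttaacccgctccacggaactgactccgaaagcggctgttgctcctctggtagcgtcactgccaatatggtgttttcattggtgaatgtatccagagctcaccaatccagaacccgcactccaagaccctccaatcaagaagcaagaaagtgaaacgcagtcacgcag
Alas2 had 1 GATA match, at -86 to -81 from the start, and 4 CACCC matches between -42 and -19, of which 3 overlap. Cpox had 2 GATA matches that share 1 base, between -91 and -81, and no CACCC match. Ppox had neither, and so did the window of Urod. Uros had 1 CACCC match at the first of its starts and 2 GATA matches at the second, and the windows of Alad and Tfrc held CACCC matches alone. Over the full windows of 250 bases Alas2 had 4 CpG dinucleotides, Cpox 11 and Ppox 13 (12 of them in the 243 bases printed), beside a median of 6 over all windows.

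Other genes of heme and iron handling were taken from 4 lists. Among other heme synthesis and mitochondrial heme transport genes, 3 of 9 tested rose in BRSST+sgLuc against sgLuc, where 10.8% of all genes did, with a list median of log2 0.31 beside 0.01 over all genes. They were Slc25a39, a mitochondrial glutathione carrier (0.43 ± 0.10, limma adjusted p = 0.00612), Slc25a38, a glycine carrier that feeds heme synthesis (0.51 ± 0.16, 0.0390), and Slc25a28, mitoferrin 2 (0.53 ± 0.18, 0.0452). Slc25a39 read 9.38 to 9.61 on BRSST+sgLuc and 8.95 to 9.25 on sgLuc arrays, without overlap. The calls of Slc25a38 and Slc25a28 ended in 8 of 24 and 15 of 25 other fits. The list had 0 calls in the other comparisons, where Slc25a39 differed by 0.33 ± 0.10 between BRSST+sgEzh2 and sgLuc (0.0541). Alas1, the synthase of other cells, differed by 0.37 ± 0.11 between the same groups (0.0596).

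Iron-sulfur cluster assembly, on which ferrochelatase depends for its own cluster, had the most calls of the 4 lists. In BRSST+sgLuc against sgLuc 4 of 11 tested genes rose, beside 10.8% of all genes, and all 11 estimates were above 0, with a median of log2 0.38. Bola3, a late assembly factor, rose by 0.79 ± 0.15 (limma adjusted p = 0.00305) and Glrx5, the mitochondrial glutaredoxin that passes clusters on, by 0.57 ± 0.10 (0.00124). Glrx5 read 10.31 to 10.62 on BRSST+sgLuc and 9.89 to 10.04 on sgLuc arrays, and these did not overlap. Isca2 rose by 0.43 ± 0.11 (0.0101), and Iscu, the scaffold, by 0.42 ± 0.13 (0.0363), a call that ended in 9 of 25 other fits. In BRSST+sgEzh2 against sgLuc 1 of 11 rose (5.51% of all genes did), Bola3, by 0.60 ± 0.16 (0.0333), a call that ended in 9 of 24 other fits. In BRSST+sgEzh2 against BRSST+sgLuc 0 of 11 passed, with Glrx5 at -0.28 ± 0.10 (0.208).

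Of 18 genes of iron uptake, storage and sensing, 2 fell in BRSST+sgLuc against sgLuc and 0 rose, a share near the 11.7% of all genes that fell. Slc40a1, ferroportin, the iron exporter, was 2.12-fold lower (-1.08 ± 0.23, limma adjusted p = 0.00521), and its call held in all 25 other fits. It read 7.85 to 8.93 on BRSST+sgLuc arrays and 9.42 to 9.85 on sgLuc arrays. Exoc6, an exocyst subunit whose mutation impairs transferrin cycling in mice, fell by 0.56 ± 0.19 (0.0418), lost in 12 of 24 other fits. The other 16 genes, ferritin subunits among them, did not pass, and Slc40a1 differed by -0.63 ± 0.24 between BRSST+sgEzh2 and sgLuc (0.130). In BRSST+sgEzh2 against BRSST+sgLuc 0 of 18 passed, with Trf, transferrin, at 0.83 ± 0.23 (0.119) and Ncoa4, the ferritin autophagy receptor, at 0.51 ± 0.17 (0.203). Of 8 tested genes of heme export, breakdown and sensing, 1 fell in BRSST+sgLuc against sgLuc, again near the share of all genes. It was the heme exporter Flvcr1 (-0.54 ± 0.18, 0.0436, lost in 12 of 25 other fits), and 0 passed elsewhere.

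**Figure D4:**
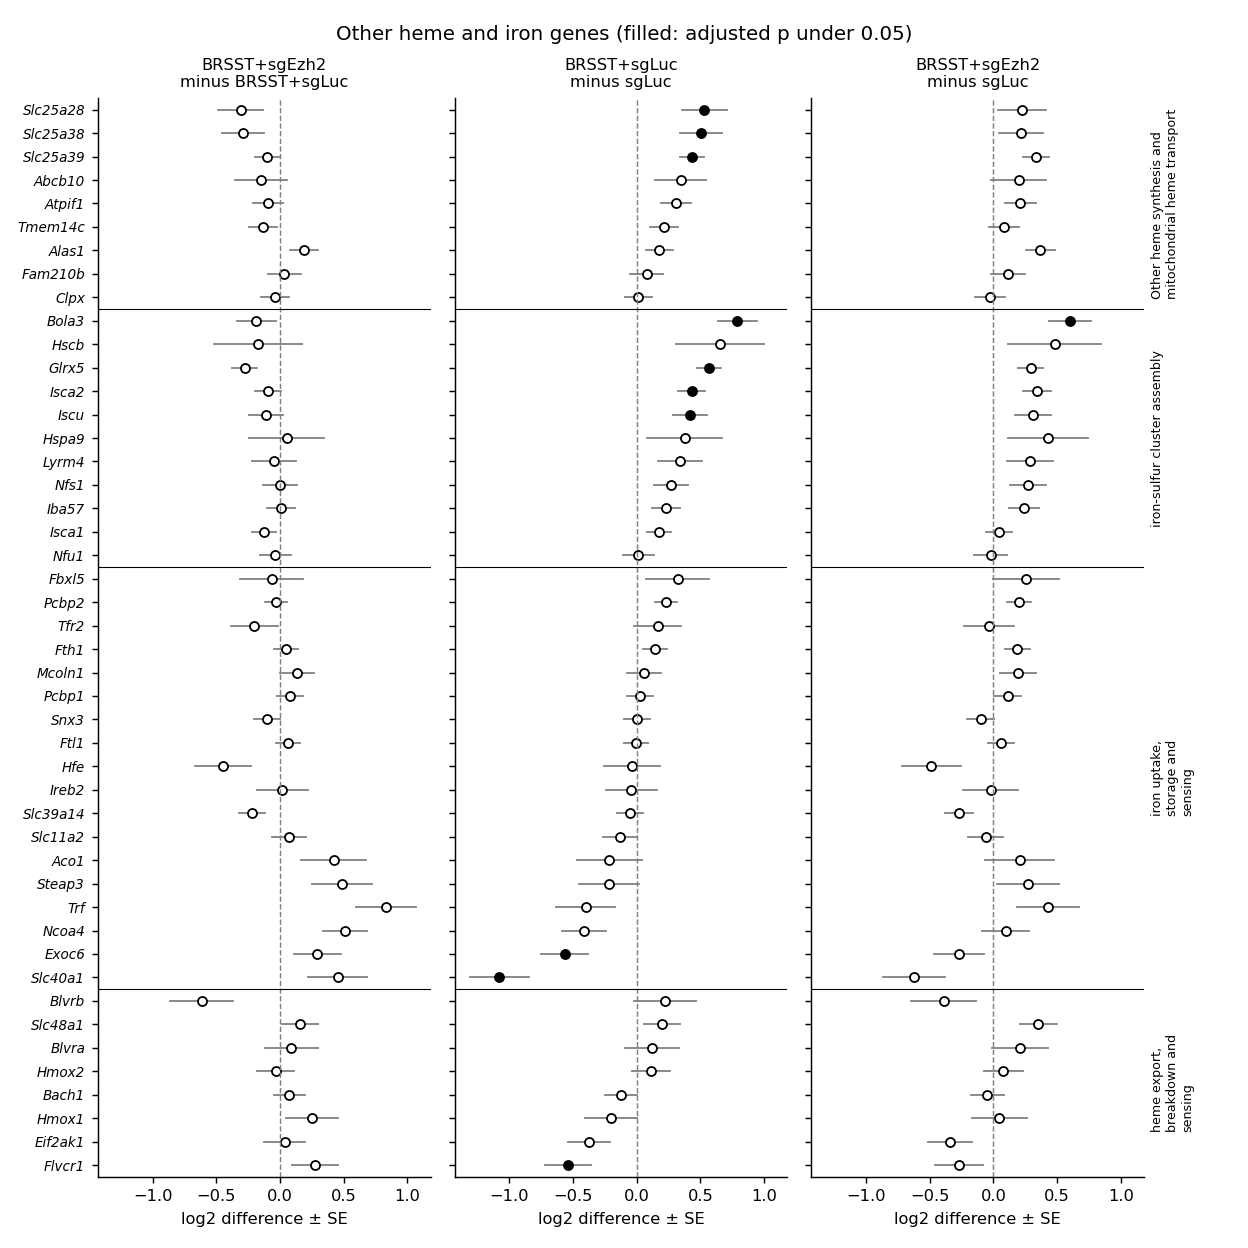
Log2 difference with its SE for the 46 tested genes of 4 heme and iron lists (rows, ordered within a list by the middle panel) in the 3 comparisons. Filled circles passed limma at an adjusted p of 0.05: 10 in BRSST+sgLuc against sgLuc, 1 in BRSST+sgEzh2 against sgLuc and 0 in BRSST+sgEzh2 against BRSST+sgLuc.

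Some red cell genes outside heme synthesis had larger differences than Fech in BRSST+sgLuc against sgLuc. Of 8 tested red cell membrane genes 5 rose, beside 10.8% of all genes, among them Cldn13, a claudin of mouse erythroid cells (2.04 ± 0.51, limma adjusted p = 0.0115). Cldn13 ranges overlapped, at 7.40 to 10.47 on BRSST+sgLuc and 6.79 to 7.90 on sgLuc arrays. Only 1 sgLuc array had Cldn13 above the array median, so the size of its difference can rest on background. Rhag, a Rh complex glycoprotein, rose as well (adjusted p = 0.000604), at 7.39 to 9.23 on BRSST+sgLuc and 4.69 to 6.49 on sgLuc arrays. It was below the array median on every sgLuc and every BRSST+sgEzh2 array, where such a signal can be background, so the size of its difference is not given. Rhag and Add2, an adducin of the red cell membrane skeleton, were tested through BRSST+sgLuc arrays alone. The filter thus favoured a rise of both, so 5 of 8 is not a like count beside the 10.8%. Among the 5, the calls of Ank1 and Aqp1 ended in 6 of 24 and 13 of 24 other fits, while those of Cldn13 and Rhag held in all 24. Of 11 erythroid regulators 2 rose, the carbonic anhydrases Car1 (2.58 ± 0.53, 0.00392) and Car2 (1.20 ± 0.33, 0.0183), while 6 of the 11 estimates were above 0 and 5 below, with a list median of log2 0.16 beside 0.01 over all genes. In BRSST+sgEzh2 against BRSST+sgLuc 0 of 8 and 0 of 11 passed, with Car1 at -1.77 ± 0.53 (0.145). In BRSST+sgEzh2 against sgLuc 0 of 8 and 0 of 11 passed as well.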

How the data were processed

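The authors deposited log2 signals, 1 for each row of each array. R 3.5.01 and oligo are named in the submitters' processing notes. The sources used here give neither the background correction nor the normalization. The log2 scale was read from the values (3.23 to 13.75). Per the labels' protocols, 2 ng of RNA was amplified with 10 PCR cycles, which can distort large differences. Of 22203 rows, 19572 had 1 symbol, 0 had several and 2631 had none. For the 55 symbols with more than 1 row the row of highest mean was used.

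Genes above their array's median on at least 4 arrays (10601) were tested with limma 3.58.1 in R 4.3.3, in 1 fit over 13 arrays with no covariates. P-values were adjusted by Benjamini-Hochberg over all genes tested, with a threshold of 0.05. All adjusted p are limma's. Intervals are the fit's 95% intervals. Arrays have no read depth. Figures used matplotlib 3.10.9 in Python 3.11.15.

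The named genes were all members, up to 4 called genes of each list and comparison with the largest change (or the 2 of smallest p where none passed), and the 5 genes most like Alas2. Values of some named genes in the other comparisons were added beside them after they were seen. Members and lists were chosen with earlier results of these data known. On simulated data of 10601 genes, limma recovered 91% of genes changed by log2 1 for the Ezh2 guide (BRSST+sgEzh2 against BRSST+sgLuc), with 4.5% false calls. Against sgLuc it recovered 87% with 5.1% false calls for BRSST+sgEzh2, and 91% with 3.55% for BRSST+sgLuc. The simulation changed 200 genes, drew noise independently between genes, and gave a gene the same SD in all groups. In the real data the median SD was 0.248 in BRSST+sgLuc and 0.154 in sgLuc marrow, so these rates need not hold there. Recovery of genes that spread as widely as Alas2, Cpox and Tfrc in BRSST+sgLuc marrow was not tested.

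Results were refitted with no filter, with a stricter filter (percentile 75), after quantile normalization and after setting medians equal. Other fits subtracted each array's red cell membrane mean, averaged rows of a gene, or used a trended and robust variance, weights for array quality or a replicate block. Further fits took the compared groups alone, stricter thresholds, or left out each array. Alas2, Urod, Cpox and Tfrc failed the stricter filter and have no fit under it. Uros was refitted with no filter alone. The Y-linked class, split at the widest gap in the mean of Uty and Kdm5d, was added as a block and by class after seeing the data. The low class holds no sgLuc array. The main fit took replicate numbers as not pairing the samples, which the values do not settle.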

Additional observations from a re-analysis of the deposited data

Results flagged for a closer look

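Single arrays stood apart from the rest of their group in 7 of the 105 group-by-gene sets looked at, 2 of them among the 27 sets of the members, where chance gives about 1 in 20. Alas2 of sgLuc replicate 3 was the lowest of its group at log2 7.75, where the other arrays lay at 7.88 to 7.89. Ppox of BRSST+sgEzh2 replicate 3 was the highest of its group at 10.79, where the others lay at 10.50 to 10.54. Among genes of the lists, Cldn13 of sgLuc replicate 4 was high at 7.90 (others 6.79 to 6.83), and Slc25a28 of BRSST+sgEzh2 replicate 4 at 11.20 (10.88 to 10.93). Of the iron-sulfur genes, Glrx5 of BRSST+sgLuc replicate 5 was low at 10.31 (10.56 to 10.62), Isca1 of BRSST+sgLuc replicate 3 low at 8.44 (8.65 to 8.72), and Isca2 of BRSST+sgLuc replicate 2 high at 10.02 (9.70 to 9.77).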

How the results depend on the processing

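Over all members and other fits, 562 differences kept direction and side of the threshold, and 26 turned. The 562 include those of Uros, which was refitted with no filter alone and had no test in the main fit to keep. Many of the 562 could not turn, as when an array outside the comparison was left out. In all 10 gained a call and 4 lost one. Of the 10, 3 turned relative to the red cell membrane mean (Urod, Cpox and Slc25a37 of BRSST+sgLuc against sgLuc). With an array left out, members called were 0 for BRSST+sgEzh2 against BRSST+sgLuc and 2 for BRSST+sgEzh2 against sgLuc. The number was 1 to 3 for BRSST+sgLuc against sgLuc, and 1 without sgLuc replicate 2 (Ppox lost). It was 1 there at an adjusted p of 0.01, and 0 for both comparisons with sgLuc when 2-fold was also asked.

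Subtracting the red cell membrane mean of each array shifted the median of all genes by 0.66, -0.81 and -0.14 in the 3 comparisons, and by construction the members with it. Members called were then 2 (both higher), 5 (all lower) and 0. Between BRSST+sgEzh2 and BRSST+sgLuc, Alad turned to 0.36, Cpox to 0.50, Ppox to 0.46, Fech to 0.56 and Tfrc to 0.51. Between BRSST+sgLuc and sgLuc, Alas2 turned to -0.14, Alad to -0.44, Urod to -0.65, Cpox to -0.62 and Slc25a37 to -0.62. Between BRSST+sgEzh2 and sgLuc, Alad turned to -0.078 and Cpox to -0.12, and Ppox (-0.87, adjusted p = 0.0699) and Fech lost their calls.

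Other turns were of small estimates, and their cause was not tested. For BRSST+sgEzh2 against BRSST+sgLuc with an array left out, Cpox ran from -0.36 to 0.095 (without BRSST+sgLuc replicate 3). Tfrc ran from -0.40 to 0.059 (without BRSST+sgLuc replicate 4). Tfrc was 0.49 in the low Y-linked class alone and Slc25a37 -0.11 in the high class alone. For BRSST+sgLuc against sgLuc with an array left out, Cpox ran from -0.067 (without BRSST+sgLuc replicate 3) to 0.39 and Tfrc from -0.43 to 0.078 (the highest without BRSST+sgLuc replicate 2). Tfrc was 0.012 with array quality weights, 0.029 with the Y-linked class as a block and 0.44 in the high class alone. For BRSST+sgEzh2 against sgLuc with an array left out, Alas2 ran from -0.28 to 0.0067 (without BRSST+sgEzh2 replicate 2), Alad from -0.014 (without BRSST+sgEzh2 replicate 3) to 0.15 and Cpox from -0.11 (without sgLuc replicate 3) to 0.18. Alad was -0.0041 with the Y-linked block.

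Whether replicate numbers pair the samples was not settled. The r of deviations was -0.176 to 0.192 over 12 pairs of the same number (4 above 0.1), and -0.319 to 0.362 over pairs of unlike number. With the replicate block, members called were 0, 3 and 2, with Alad gained for BRSST+sgLuc against sgLuc (0.46, adjusted p = 0.0369), and all genes called were 28 in place of 83 for BRSST+sgEzh2 against BRSST+sgLuc. That count was 1039 with array quality weights, 128 with no filter, 36 with the stricter one, 55 with equal medians, 17 with only the 2 groups compared, 22 to 377 with an array left out, and 170, 722 and 1 with the Y-linked block, high class and low class. With array quality weights it was 4879 in place of 2389 for BRSST+sgLuc against sgLuc and 2976 in place of 993 for BRSST+sgEzh2 against sgLuc, where only the 2 groups compared gave 1822 and the high class alone 1874. The 993 became 519 and 588 without sgLuc replicates 1 and 2, and 610 and 597 without BRSST+sgEzh2 replicates 1 and 2. It was 1481 for BRSST+sgLuc against sgLuc without sgLuc replicate 1 and 3655 in the high class alone. Counts of list genes moved by over 1.5 times in 227 of 984 cases.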
